A study of Mus musculus with 7 samples.

Results

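The genes described here are 7 transcripts commonly used to mark dendritic cells, Batf3, Zbtb46, Flt3, Itgax, Cst3, Ly75 and Cd83, out of 12393 genes that the arrays name. They were found by taking every probe set whose only gene symbol is one of the 7, which gave 9 probe sets of the 20380 with a single symbol: 3 for Zbtb46 and 1 for each of the others. Transcripts of spleen cells were measured on 7 Affymetrix arrays in a mouse model of acute graft-versus-host disease, with the aim of testing the ICOS receptor and its ligand ICOSL. All recipients were female C57BL/6 (B6) mice, 9 to 12 weeks old, irradiated with 10.0 Gy and given splenocytes 4 to 6 h later, and all spleens were taken on day 4.

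The anti-ICOSL day 0 group (2 arrays) received C3H/HeN splenocytes, which differ from the host in their MHC (allogeneic), and an antibody to ICOSL, 500 µg on day 0 and 200 µg every other day after it. The anti-ICOSL day 3 group (2 arrays) received the same cells and doses from day 3, so a single day separates its first injection from collection. The isotype group (2 arrays) received C3H/HeN cells and control rat IgG, whose start day is not stated. The syngeneic group (1 array) received B6 cells, and its labels name no antibody. RNA of the allogeneic mice of a group was combined before it went onto 2 arrays, so each p-value and interval below measures the spread between arrays, which may be technical. Donor strain, antibody injection and the allogeneic response cannot be told apart in the comparison of isotype with syngeneic.

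Dendritic cells take up antigen, carry it to lymphoid tissue and present it on MHC molecules to T cells. In graft-versus-host disease, dendritic cells of the host that outlive irradiation can prime the donor T cells, and donor cells can take over later. Conventional dendritic cells arise from Flt3-bearing progenitors under Flt3 ligand and divide into a Batf3-dependent lineage that cross-presents antigen to CD8 T cells (cDC1) and a lineage that leans on Irf4 (cDC2). None of the 7 genes is exclusive to dendritic cells. Itgax and Cst3 are also read in macrophages, Cd83 and Ly75 in B cells and activated lymphocytes, Batf3 in activated helper T cells, Flt3 in early progenitors, and Zbtb46 in endothelium and erythroid progenitors. In RNA of whole spleen cells, fewer cells of a type and less RNA per cell cannot be told apart.

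Values are MAS5 signals, the intensity of a probe set after each array was scaled to a common mean, and signals of different probe sets are not comparable. Array medians ran from 145.3 to 174.3. Tests used log2(signal + 50) in 1 limma fit over the 7 arrays, and a probe set was tested if the mean of at least 1 group reached a signal of 99.67, the 40th percentile. A gene was called at an adjusted p (Benjamini and Hochberg, over 15372 probe sets) below 0.05. All 7 genes were tested, each through 1 probe set. The means of Batf3, Itgax, Cst3 and Cd83 reached the threshold in every group, whereas Flt3 missed it in syngeneic, Ly75 reached it in anti-ICOSL day 3 and syngeneic only, and Zbtb46 in anti-ICOSL day 3 only. Arrays of a group differed at least 2-fold for 487 probe sets in anti-ICOSL day 0, 487 in anti-ICOSL day 3 and 660 in isotype.

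None of the 7 dendritic cell genes was called in any of the 5 comparisons of groups made, and Cst3, which was 2.31-fold lower in isotype than in syngeneic, came nearest. The comparisons without the syngeneic array had no called probe set in the whole table, and isotype against syngeneic had 6.62% called. Over the 7 arrays together the signal of Itgax spanned 1.47-fold, that of Batf3 1.52-fold and that of Cd83 1.62-fold on the scale with 50 added. The spans of Cst3 (2.85-fold) and Zbtb46 (3.21-fold) were the widest of the tested probe sets of the 7 genes.

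**Figure D1:**
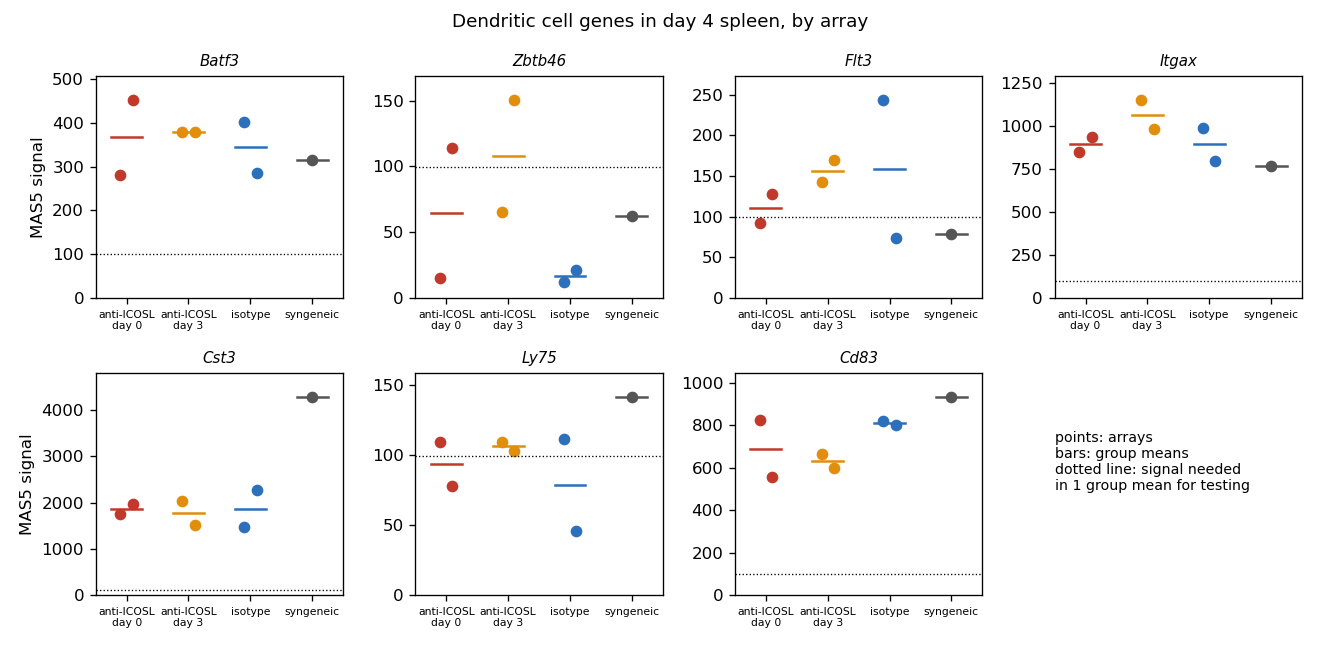
MAS5 signal of the tested probe set of each gene (vertical axis, linear, from 0) on each array, by group (horizontal axis); points are arrays, bars are group means and the dotted line is the signal of 99.67 that 1 group mean had to reach. Cst3 was lower on all 6 allogeneic arrays than on the syngeneic array, while the groups of Batf3 lie over each other.

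The comparison of isotype with syngeneic asks what an MHC-mismatched graft, as opposed to a matched one, does to the spleen. Cst3 was the member that differed most. It encodes cystatin C, a secreted inhibitor of the cysteine proteases that trim antigen and the invariant chain. Cst3 had signals of 1758 and 1977 on the anti-ICOSL day 0 arrays, 2037 and 1509 on the anti-ICOSL day 3 arrays, and 1472 and 2262 on the isotype arrays, against 4287 on the syngeneic array. Every allogeneic array thus lay below the syngeneic one, and the 3 allogeneic groups overlapped. The syngeneic array also stood apart in its 3′/5′ signal ratio for the Gapdh control, a sign of RNA quality, with 0.767 to 0.865 on the allogeneic arrays against 0.957, while that of Actb ran from 0.967 to 1.02 against 1.03. The part of RNA quality in the isotype against syngeneic differences was not tested. Isotype averaged 1867 ± 558 (SD, n = 2) against 4287, a log2 change of −1.21 ± 0.32 (SE; 95% interval −1.98 to −0.44). Limma gave an adjusted p of 0.0816, which misses the threshold. Over 16 other settings the adjusted p ran from 0.00743 to 0.160. It passed with a pseudocount of 100 (0.0467), with a filter at the 60th percentile (0.0292) and with limma's trend and robust options (0.00743). With all 6 allogeneic arrays set against the syngeneic array, a comparison added after the values were seen, Cst3 was lower by 1.22 on the log2 scale (−1.22 ± 0.28 SE, adjusted p = 0.0463), where 9.74% of all probe sets were called and 5.76% were called lower.

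Macrophages also express Cst3, and their markers moved the same way. Of 13 macrophage markers tested, 12 fell in isotype against syngeneic (median log2 change −2.48). Their summed signal was 9852 and 9373 on the isotype arrays against 70979 on the syngeneic array. On the anti-ICOSL day 0 arrays it was 16441 and 16061, and on the anti-ICOSL day 3 arrays 13684 and 13039. No macrophage marker was called in anti-ICOSL day 0 against isotype, where all 13 had higher means, while the log2 change of Cst3 there was 0.03 (95% interval −0.60 to 0.66). The part of macrophages in the level of Cst3 was not tested.

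Batf3, an AP-1 family transcription factor required for cDC1, showed no separation of the groups. Its signals were 281 and 453 with anti-ICOSL from day 0, 378 and 378 with anti-ICOSL from day 3, and 403 and 287 with isotype, against 316 on the syngeneic array. The arrays of all groups overlapped, and isotype against syngeneic gave a log2 change of 0.09 (95% interval −0.66 to 0.85, adjusted p = 0.896).

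Itgax, the alpha chain of the integrin CD11c, had signals of 852 and 939 with anti-ICOSL from day 0, 1154 and 983 with anti-ICOSL from day 3, and 991 and 799 with isotype, against 771 on the syngeneic array. All 6 allogeneic arrays lay above the syngeneic one, by a small margin. Isotype averaged 895 ± 136 (SD, n = 2) against 771, a log2 change of 0.20 (95% interval −0.36 to 0.75, adjusted p = 0.664). With 1 isotype array left out it was 0.05 or 0.34.

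Cd83, a surface protein of mature dendritic cells that keeps MHC class II and CD86 on the membrane, had signals of 823 and 556 with anti-ICOSL from day 0. They were 663 and 599 with anti-ICOSL from day 3 and 819 and 803 with isotype, against 934 on the syngeneic array. All allogeneic arrays lay below the syngeneic one. The means of isotype and syngeneic lay closer together than the 2 anti-ICOSL day 0 arrays did. The change in isotype against syngeneic was −0.19 (95% interval −0.83 to 0.44, adjusted p = 0.717).

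Ly75 encodes CD205, an endocytic receptor that carries antigen into cross-presenting dendritic cells. It was dim, with 109 and 78.0 on the anti-ICOSL day 0 arrays, 110 and 103 on the anti-ICOSL day 3 arrays, and 111 and 45.7 on the isotype arrays, against 142 on the syngeneic array. The syngeneic signal was the highest of the 7, and the isotype arrays lay further apart than the means of isotype and anti-ICOSL day 3. Isotype against syngeneic gave −0.62 (95% interval −1.44 to 0.19, adjusted p = 0.332), which became −1.0 without isotype array 1 and −0.25 without isotype array 2.

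Flt3 encodes the receptor tyrosine kinase that drives progenitors towards dendritic cells. It had 92.6 and 128 on the anti-ICOSL day 0 arrays, 142 and 170 on the anti-ICOSL day 3 arrays, and 244 and 74.4 on the isotype arrays, against 78.7 on the syngeneic array. The isotype arrays held both the highest and the lowest signal of the series, a log2 gap of 1.24, so no order of the groups can be read from it. Without isotype array 1 the log2 change in isotype against syngeneic was −0.05, against 0.57 with both arrays (95% interval −0.59 to 1.73, adjusted p = 0.540).

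Zbtb46 encodes a zinc finger repressor that sets conventional dendritic cells apart from monocytes and plasmacytoid dendritic cells. Its tested probe set gave 14.9 and 114 on the anti-ICOSL day 0 arrays, 65.2 and 151 on the anti-ICOSL day 3 arrays, and 12.6 and 21.2 on the isotype arrays, against 62.0 on the syngeneic array. Both isotype arrays were below the syngeneic one, and the anti-ICOSL day 0 arrays lay on either side of it. The log2 change in isotype against syngeneic was −0.75 (95% interval −2.12 to 0.63, adjusted p = 0.495).

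The other 2 probe sets of Zbtb46 were below the threshold in every group and were not tested. The second read 67.5 and 11.5 with anti-ICOSL from day 0, 49.4 and 30.6 with anti-ICOSL from day 3, and 40.6 and 35.1 with isotype, against 77.7 on the syngeneic array. The third read 6.73 and 8.04 with anti-ICOSL from day 0, 14.5 and 27.8 with anti-ICOSL from day 3, and 44.4 and 15.7 with isotype, against 87.5 on the syngeneic array. Both were highest on the syngeneic array, and neither had the high anti-ICOSL day 3 signal of the tested probe set.

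**Figure D2:**
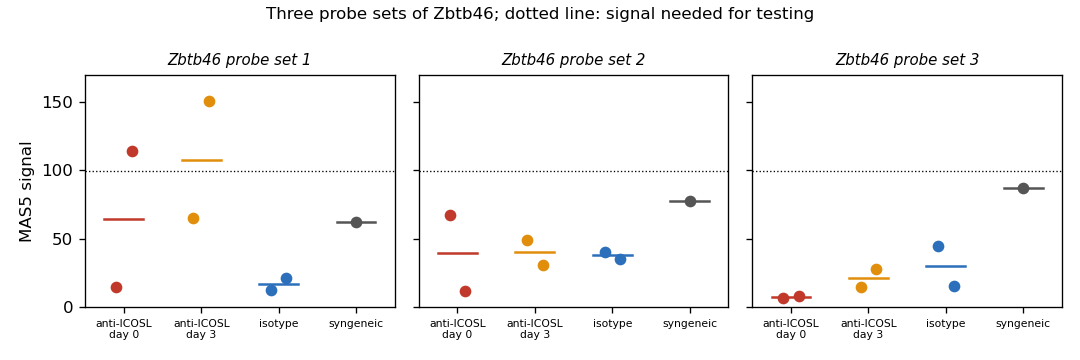
MAS5 signal (vertical axis) of the 3 probe sets of Zbtb46 by group (horizontal axis); points are arrays, bars are group means and the dotted line is the test threshold of 99.67. Only the first probe set reaches it in a group mean, that of 108 in anti-ICOSL day 3, and the probe sets give different orders of the groups.

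Over the list, 0 of the 7 genes were called in isotype against syngeneic, where 6.62% of all tested probe sets were (2.49% higher and 4.12% lower), and 1 (Cst3) had an unadjusted p under 0.05, where 23% of probe sets did. Their median log2 change was −0.19, beside −0.01 for all tested probe sets, with 3 higher and 4 lower. The isotype arrays lay clear of the syngeneic array for 5 of 7, which is 1 higher (Itgax) and 4 lower (Zbtb46, Cst3, Ly75 and Cd83), against 38% higher, 38.8% lower and 76.9% in either direction over all probe sets.

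Genes that work beside the 7 were described from lists. In these and in the marker lists, counts of genes that rose or fell are counts of called genes only. Of 9 cDC1 genes tested, 1 fell in isotype against syngeneic and none rose, with a median log2 change of −0.06. The one that fell was Cadm1, an adhesion molecule of cDC1 (140 against 771, −2.11 ± 0.26 SE, adjusted p = 0.00895). Irf8, the transcription factor that sustains cDC1 together with Batf3, stood at 2199 against 1842 (adjusted p = 0.523). Xcr1, the chemokine receptor that defines cDC1, was dim at 75.2 against 78.4 (adjusted p = 0.952).

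Of 7 cDC2 genes tested, 1 rose and 2 fell (median −0.62). Irf4, which is also induced in activated T cells and plasma cells, rose to 1198 in isotype against 542 in syngeneic (adjusted p = 0.0453). Sirpa, an inhibitory receptor of cDC2 and macrophages, fell to 528 against 2445 (−2.12 ± 0.25 SE, adjusted p = 0.00799). Clec10a, a lectin of cDC2 and macrophages, fell to 16.4 against 78.5 (adjusted p = 0.0354), and it was tested only because its anti-ICOSL means reached the threshold. Of 9 genes of plasmacytoid dendritic cells tested, 2 fell (median −0.47). Spib, a transcription factor shared with B cells, fell to 1037 against 2194 (adjusted p = 0.0430). The other was Ccr9, a homing receptor (36.1 against 178, adjusted p = 0.0278), whose probe set was tested only because the syngeneic array reached the threshold, so that call is no more than a description.

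Of 14 maturation and T cell stimulation genes tested, 1 rose and 2 fell (median 0.00). Ccr7, which guides mature dendritic cells and naive T cells, fell to 345 against 1425 (adjusted p = 0.0225), and Cd86, the ligand of CD28 that CD83 keeps on the membrane, fell to 292 against 1041 (adjusted p = 0.0274). Tnfsf9, the ligand of 4-1BB, rose to 380 against 62.6 (adjusted p = 0.00674). Its probe set was tested only because the allogeneic means reached the threshold, so that call is no more than a description. Of 10 genes of Flt3 and GM-CSF signalling tested, Csf2ra, a chain of the GM-CSF receptor, fell to 151 against 674 (adjusted p = 0.0133).

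Among 8 tested partners and relatives of Batf3, 1 was called higher and 1 lower, with log2 changes above 0 for 2 and below 0 for 6. Batf, its closest relative and a factor of effector T cells, rose to 2528 in isotype against 642 in syngeneic (1.89 ± 0.23 SE, adjusted p = 0.00871), where Batf3 was 345 against 316. Fos, an AP-1 subunit, fell to 295 against 2515 (−2.90 ± 0.20 SE, adjusted p = 0.00231). None of the 7 tested genes of the beta 2 integrins, among which Itgb2 is the partner chain of Itgax, was called. Itgb2 stood at 10029 against 9712 (adjusted p = 0.921).

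Of 11 targets of cystatin C and class II processing genes tested, 5 were called lower and none higher (median −1.03). The isotype arrays lay clear below the syngeneic array for all 11, as for 38.8% of all probe sets. The cathepsins Ctsb (6824 against 18265, adjusted p = 0.0116), Ctss (4426 against 9180, adjusted p = 0.0264) and Ctsh (780 against 1637, adjusted p = 0.0444) and the legumain gene Lgmn (1586 against 4680, adjusted p = 0.0126) fell, as did the class II chain H2-Ab1 (906 against 4663, adjusted p = 0.0122). Cst3 had a log2 change in the same range as these called proteases, whose changes ran from −1.03 to −1.53. Over all 11 genes of the list changes ran from −2.33 to −0.32, and Ctsz, a further cathepsin, stood at 2384 against 2997. H2-Aa, a further class II chain, stood at 6642 against 11726 and was not called. The allogeneic donor cells differed from the host in their MHC, and the part of strain differences in the H2-Ab1 signal was not tested. These transcripts are shared with macrophages, whose summed signal is given above.

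The other cell types that express the 7 genes were followed through marker lists. Of 8 B cell markers tested, 1 was called lower and none higher in isotype against syngeneic, and all 8 had log2 changes below 0. The summed signal of 9 B cell markers was 12718 and 11921 on the anti-ICOSL day 0 arrays, 12563 and 11742 on the anti-ICOSL day 3 arrays, and 17660 and 16048 on the isotype arrays, against 25868 on the syngeneic array. The means of Cd83 had the same order of groups, though both the Cd83 signals and the B cell sums of the anti-ICOSL groups overlapped. Those of Cst3 gave no such order, with 1867 in both isotype and anti-ICOSL day 0. Of 11 T cell markers tested 3 rose, and of 10 markers of activated T cells and NK cells 5 rose (median 1.17), with none called lower in either list. The 2 of these 10 with lower means in isotype than in syngeneic were Klrd1 (682 against 1395) and Ncr1 (348 against 464), receptor genes of NK cells. The summed signal of the activated T cell and NK cell markers was 44881 to 53968 on the 6 allogeneic arrays against 13335 on the syngeneic array. Gzmb gave a large part of that sum, with 25581 and 30122 on the isotype arrays against 3059 on the syngeneic array. Batf3 ran from 281 to 453 on the allogeneic arrays against 316.

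None of 3 endothelial markers tested was called. Called lower were 2 of 5 progenitor markers, 4 of 7 erythroid markers and 5 of 7 neutrophil markers. Log2 changes were below 0 for 4 of 5 progenitor markers and for all 7 erythroid and all 7 neutrophil markers. The summed progenitor signal was 1849 and 2226 with anti-ICOSL from day 0 and 2197 and 2131 with anti-ICOSL from day 3. It was 1489 and 1617 with isotype, against 3084 on the syngeneic array. Most of this sum was the signal of Mpo, with 1049 and 958 on the isotype arrays against 2239 on the syngeneic array. The mean of Gata2 went the other way, at 323 in isotype against 296, and Flt3 was high on 1 isotype array. The endothelial sum ran from 763 to 1145 on the allogeneic arrays against 1320 on the syngeneic array, and the erythroid sum from 5916 to 9694 against 22724. Only 3 of 10 endothelial markers were bright enough to be tested. Tie1, which was not, read 2.87 and 13.9 on the isotype arrays, so a signal above 0 is by itself no sign of expression. The part of any of these cell types in the levels of the 7 genes was not tested.

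The calls of Cadm1, Sirpa, Tnfsf9, Fos, Batf, H2-Ab1 and Ctsb held under each of the 16 other settings. Those of Irf4, Spib, Ctsh and Ctss ended with any 1 allogeneic array left out, with the replicate block and without a filter. They also ended with only the groups compared (adjusted p of 0.113, 0.114, 0.117 and 0.0950). A pseudocount of 16 and median centring each ended those of Irf4, Spib and Ctsh, and quantile normalization that of Ctsh. That of Clec10a ended in each fit short of 1 allogeneic array, with the replicate block and without a filter. It also ended with a pseudocount of 100 (adjusted p = 0.0815), with median centring (0.064) and with trend and robust options (0.195). The log2 change of Clec10a was 0.01 over all 6 allogeneic arrays (adjusted p = 0.978). Csf2ra lost its call without either isotype array (up to 0.0564), Lgmn without isotype array 2 (0.0534), and Ccr7 without isotype array 2 and without a filter (up to 0.0793). The call of Cd86 ended without isotype array 2, without either anti-ICOSL day 0 array, with a pseudocount of 16, without a filter and with only the groups compared (up to 0.0766). That of Ccr9 ended without either isotype array or anti-ICOSL day 3 array 1, without a filter, with trend and robust options and with only the groups compared (up to 0.0953).

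**Figure D3:**
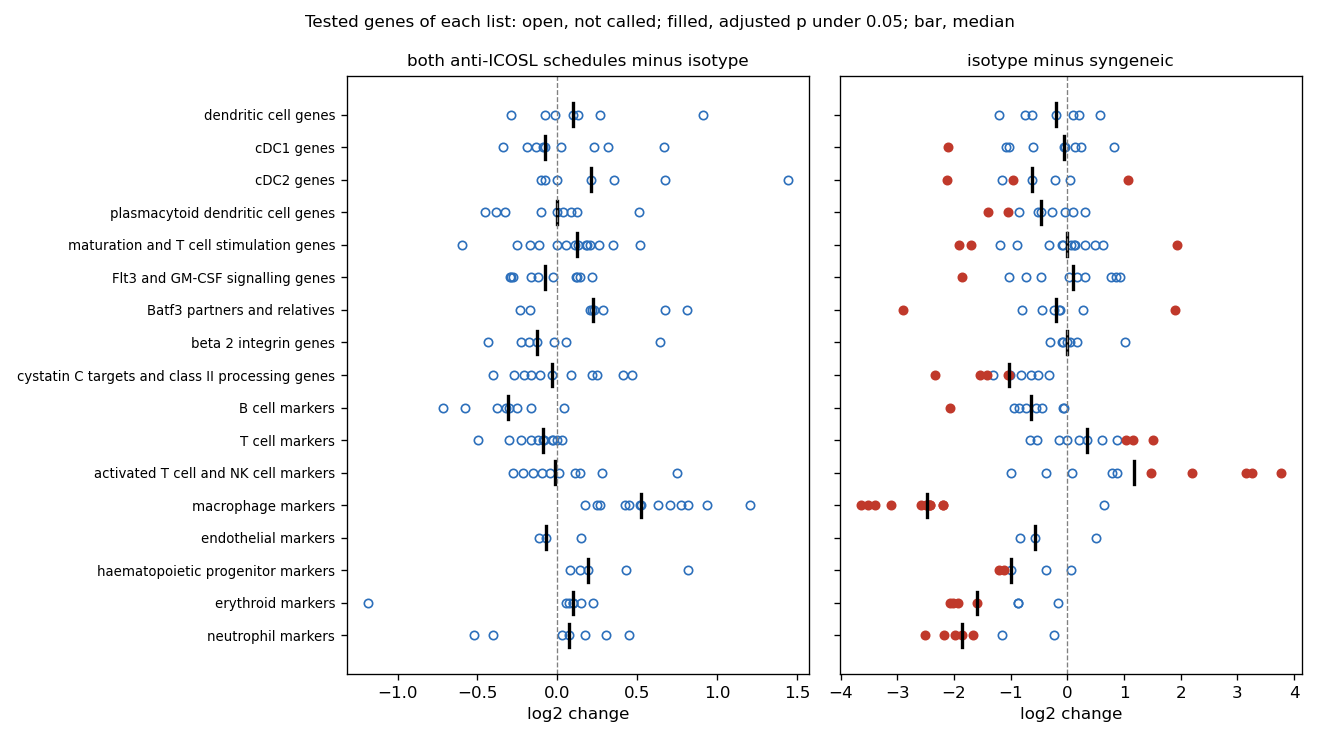
Log2 change (horizontal axes, scaled separately) of each tested gene by list (vertical axis), for both anti-ICOSL schedules minus isotype (left) and isotype minus syngeneic (right); open points were not called, filled points had an adjusted p under 0.05, and black bars are medians. The 7 dendritic cell genes (top) show no filled point, while 12 of 13 macrophage markers are filled on the right.

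The comparison of anti-ICOSL day 0 with isotype asks what blockade from the time of transplant changes. None of the 7 genes was called, as for 0% of all probe sets, and none had an unadjusted p under 0.05, where 7.18% did. The arrays of the groups overlapped for all 7, against 35.5% of probe sets whose arrays did not. The median log2 change was 0.03, beside 0.02 for all tested probe sets. Itgax averaged 895 ± 61 against 895 ± 136 (SD, n = 2 each), a log2 change of 0.01 with a 95% interval of −0.44 to 0.46. Cst3 averaged 1867 ± 155 against 1867 ± 558, and Cd83 689 ± 188 against 811 ± 11 (−0.24, adjusted p = 0.858). The intervals of Batf3 (−0.55 to 0.68), Ly75 (−0.46 to 0.86) and Flt3 (−1.21 to 0.69) leave room for changes in either direction. Zbtb46 (0.63, adjusted p = 0.833) changed sign without anti-ICOSL day 0 array 2, where its log2 change was −0.04.

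The comparison of anti-ICOSL day 3 with isotype asks what blockade does once the response is under way. No gene of the 7 was called, as for 0% of all probe sets, and 1 (Zbtb46) had an unadjusted p under 0.05, as for 10.2% of probe sets. The median change was 0.13, beside 0.03 for all tested probe sets. The arrays did not overlap for 2 of 7, Zbtb46 (higher) and Cd83 (lower), against 24.3% higher, 18.8% lower and 43.1% in either direction over all probe sets. Cd83 averaged 631 ± 45 against 811 ± 11 (SD, n = 2 each), a log2 change of −0.34 (95% interval −0.86 to 0.18, adjusted p = 0.622). Over 15 other settings its change ran from −0.44 to −0.27. With arrays that do not overlap, leaving 1 out could not turn the sign. The tested probe set of Zbtb46 averaged 108 ± 60 against 16.9 ± 6.1, a log2 change of 1.19 (95% interval 0.07 to 2.31, unadjusted p = 0.0411, adjusted p = 0.470), and it entered the test only through this anti-ICOSL day 3 mean. The other probe sets of Zbtb46 changed by 0.03 and −0.15. Itgax (1068 ± 121 against 895 ± 136) and Cst3 (1773 ± 373 against 1867 ± 558) gave 0.25 and −0.06, with adjusted p of 0.683 and 0.958.

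With both schedules together, 4 anti-ICOSL arrays against the same 2 isotype arrays, 0 of 7 were called, as for 0% of all probe sets, and the arrays did not overlap for 0 of 7, where 18.2% of all probe sets did not. None had an unadjusted p under 0.05, where 9.35% of probe sets did. The intervals were narrowest here. The log2 change was 0.13 for Itgax (95% interval −0.26 to 0.52), 0.10 for Batf3 (−0.44 to 0.63), −0.01 for Cst3 (−0.56 to 0.53) and −0.29 for Cd83 (−0.74 to 0.16). They were wider for Ly75 (−0.31 to 0.84) and Flt3 (−0.90 to 0.74). A 2-fold change on this scale, which understates changes of dim genes, lay outside the intervals of these 6 genes. It lay inside that of Zbtb46 (−0.06 to 1.88). These intervals hold only the spread between arrays, so they set no bound on changes across mice. The 3 comparisons with isotype share its 2 arrays.

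Anti-ICOSL day 0 was also set directly against anti-ICOSL day 3. None of the 7 genes was called, as for 0% of all probe sets, and none had an unadjusted p under 0.05, where 6.79% did. The median change was −0.13, beside −0.01 for all tested probe sets. Flt3 and Itgax had both anti-ICOSL day 0 arrays below both anti-ICOSL day 3 arrays, 2 of 7 genes, against 20.4% of all probe sets lower and 39% in either direction. Flt3 averaged 110 ± 25 against 156 ± 19 (SD, n = 2 each; −0.37, adjusted p = 0.889), and Itgax 895 ± 61 against 1068 ± 121 (−0.24, adjusted p = 0.854). Batf3 (−0.07), Cst3 (0.08), Cd83 (0.10), Ly75 (−0.13) and Zbtb46 (−0.56) had overlapping arrays.

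**Figure D4:**
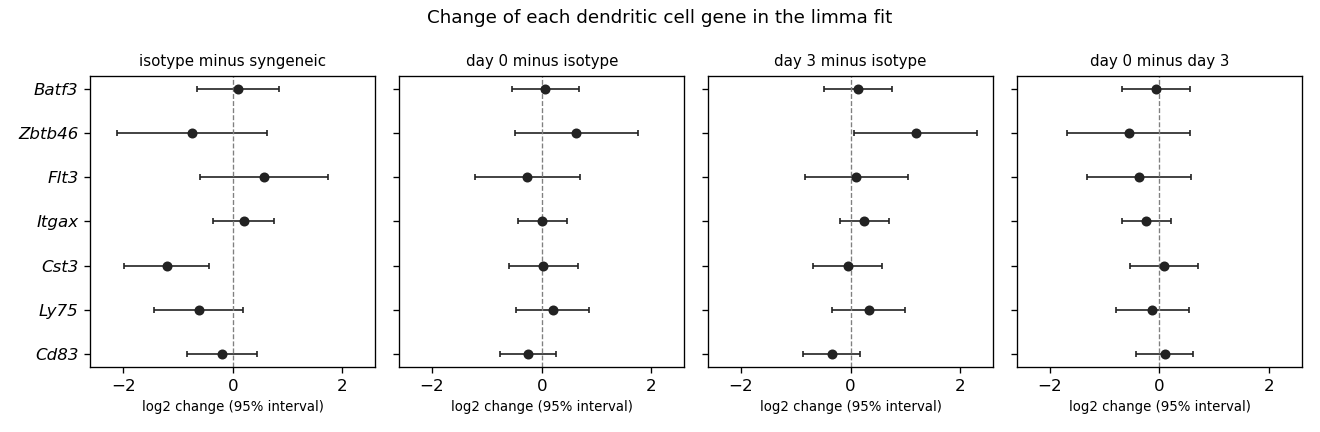
Log2 change (horizontal axes) of each dendritic cell gene (rows) in 4 comparisons of the limma fit; points are estimates and bars 95% intervals before any adjustment. The interval leaves 0 out for Cst3 in isotype minus syngeneic (−1.98 to −0.44) and for Zbtb46 in day 3 minus isotype (0.07 to 2.31), and neither gene passed after adjustment.

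The related lists gave no called gene against isotype either. For both schedules, 4 of 9 cDC1 genes had higher and 5 lower means (median log2 change −0.08), as did 4 and 5 of 9 plasmacytoid dendritic cell genes (−0.01), while cDC2 genes gave 4 higher and 3 lower (0.21). Maturation genes gave 9 higher and 5 lower (0.12), Flt3 and GM-CSF signalling genes 4 and 6 (−0.07), partners of Batf3 6 and 2 (0.22), beta 2 integrin genes 2 and 5 (−0.13), and cystatin C targets with class II genes 5 and 6 (−0.03). The smallest adjusted p among them was that of Clec10a, the lectin named above. It had 164 and 167 on the anti-ICOSL day 0 arrays, 104 and 99.2 on the anti-ICOSL day 3 arrays, and 16.3 and 16.6 on the isotype arrays, with 78.5 on the syngeneic array. All 4 anti-ICOSL arrays were above both isotype arrays. The log2 change was 1.70 ± 0.15 (SE) in anti-ICOSL day 0, where its adjusted p of 0.0853 was the smallest of the table, and 1.19 ± 0.15 in anti-ICOSL day 3 (adjusted p = 0.189). It was 1.44 ± 0.13 for both schedules (adjusted p = 0.0955). Its adjusted p ran from 0.0748 to 0.456 for both schedules over 14 other settings, and its probe set entered the test only through the anti-ICOSL means. Cadm1 (254 against 140, adjusted p = 0.410) and Cd209a, a lectin of monocyte-derived dendritic cells (77.8 against 29.2, adjusted p = 0.529), had higher means with both schedules as well. Ccr7 (214 against 345, adjusted p = 0.504) and Itgb2 (7391 against 10029, adjusted p = 0.427) had lower means. Itgam, the integrin chain CD11b, stood at 299 against 169 (adjusted p = 0.375) and Fos at 506 against 295 (adjusted p = 0.348).

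The profiles most like those of the members were sought for the 4 members that ranged over at least 1 log2 unit, as the root mean square difference of centred log2 values on the 7 arrays among 8962 genes. Cst3 was nearest to Crim1 (0.112), Fam117a (0.128) and Glul (0.137), and its nearest fellow member, Cd83, lay at 0.409. Ly75 was nearest to Exosc7 (0.073), Tspan14 (0.109) and Ncoa4 (0.121). Flt3 was nearest to Pde4a (0.190), Lin37 (0.193) and Rab30 (0.195), and Zbtb46 to Serpinf2 (0.159), Fgf14 (0.169) and Tspan1 (0.196). No member was among the 3 nearest genes of another, and Batf3, the nearest member to Flt3, ranked 162.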

How the data were processed

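The deposited values are signal intensities on a linear scale, made by the authors with MAS5, per the submitters' processing notes (version not given in the sources used here). Their 2% trimmed means were 500.18 to 500.19 on the 7 arrays, so no further scaling was applied. Probe sets were named through the platform annotation, and 20351 gene IDs matched the reference annotation. After 64 control probe sets were set aside, 22626 remained and 15372 were tested as log2(signal + 50), which understates changes of dim genes. Group means were fitted with limma 3.58.1 in R 4.3.3 over all 7 arrays (3 residual and 3.36 prior degrees of freedom), with two-sided p-values. With 1 syngeneic array, its spread was taken to be that of the other groups, and the number of arrays limits the precision. A gene's probe set with the highest mean stood for it. From each list up to 4 called genes, or 2 where none was called, were eligible to be named, and Irf8, Xcr1, Itgb2 and Ctsh were added after their values were seen. The fit was tested on simulated data. Members and lists were chosen with earlier results of these data known. Lists for B cells, T cells, activated T cells with NK cells, endothelium, progenitors, erythroid cells and neutrophils were counted too.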

Additional observations from a re-analysis of the deposited data

How the results depend on the processing

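Results were recomputed with smaller (16) and larger (100) pseudocounts, with no filter on dim probe sets or one at the 60th percentile, after centring array medians or quantile normalization, with the replicate block, with trend and robust options of limma, with only the groups compared in the fit, and with each of 6 arrays left out. In these 15 settings no dendritic cell gene that was tested was called in the 4 comparisons without the syngeneic array. Only 0 to 21 probe sets of the whole table were called there. Flt3, Ly75 and Zbtb46 did not pass the filter at the 60th percentile, nor Zbtb46 the usual filter without anti-ICOSL day 3 array 2, and with only the groups compared Zbtb46 (in 2 comparisons) and Ly75 (in 1) did not pass it either. In isotype against syngeneic 1 gene, Cst3, was called with a pseudocount of 100, with the filter at the 60th percentile, with trend and robust options, and with all 6 allogeneic arrays against syngeneic, a setting chosen after seeing the data and run for this comparison alone, and 0 with any array left out. The called probe sets of the whole table numbered 1017 as reported, 542 without a filter, 568 with only the groups compared, 1616 with the filter at the 60th percentile, 1786 with trend and robust options, and 410 to 692 with an array left out. With the replicate block, 798 were called and 0 of the 7 genes in any comparison. Over all tested probe sets, same-numbered arrays did not deviate together (correlations −0.012, 0.075 and 0.044). A batch that acts on part of the probe sets was not tested. The syngeneic array could not be left out. With 2 arrays a group, signs of small changes turned with single arrays; the cause was not tested.

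Signs turned with median centring for Itgax (−0.04) and Cst3 (−0.02) in anti-ICOSL day 0 against isotype, with quantile normalization for Cst3 in both schedules against isotype (0.01), and with all 6 allogeneic arrays against syngeneic for Clec10a (0.01). With an array left out, log2 changes in isotype against syngeneic ran from −0.12 to 0.31 for Batf3 and −0.05 to 1.19 for Flt3. In anti-ICOSL day 0 against isotype they ran from −0.24 to 0.37 for Batf3, −0.04 to 1.30 for Zbtb46, −0.88 to 0.36 for Flt3, −0.14 to 0.15 for Itgax, −0.27 to 0.33 for Cst3, −0.18 to 0.58 for Ly75 and −0.51 to 0.02 for Cd83. In anti-ICOSL day 3 against isotype they ran from −0.08 to 0.35 for Batf3, −0.52 to 0.72 for Flt3, −0.36 to 0.24 for Cst3 and −0.05 to 0.71 for Ly75. For both schedules they ran from −0.12 to 0.31 for Batf3, −0.70 to 0.54 for Flt3, −0.02 to 0.27 for Itgax, −0.32 to 0.29 for Cst3 and −0.11 to 0.64 for Ly75. In anti-ICOSL day 0 against day 3 they ran from −0.37 to 0.23 for Batf3, −1.23 to 0.11 for Zbtb46, −0.13 to 0.30 for Cst3, −0.29 to 0.03 for Ly75 and −0.17 to 0.36 for Cd83.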
